A study of Mus musculus with 4 samples.

Results

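Transcripts of the heme biosynthesis enzymes were followed in hematopoietic stem and progenitor cells (HSPC) sorted from mice, with and without constant activity of the kinase NIK. The genes were chosen by symbol and comprise Alas2, the erythroid form of the first enzyme, and 7 enzymes that all tissues share, Alas1, Alad, Uros, Urod, Cpox, Ppox and Fech. All 8 were found among the 24015 gene symbols of the count tables, and all 8 passed the filter on low counts that left 14191 tested genes. The series holds 4 RNA-seq libraries. The 2 control libraries came from mice described only as control, and no source used here says whether these carried the Cre driver or the unrecombined allele. The 2 caNIK libraries came from mice that carry both the Rosa-loxp-STOP-loxp-NIK allele and the Vav-iCre driver. These express a mutant NIK that TRAF3, its negative regulator, cannot target, once Cre has removed the stop. Vav-iCre is active throughout the blood system, so the kinase is not limited to stem cells. No source used here gives the strain, age, number of animals, tissue or sort markers.

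Library totals lay between 18574452 and 23162766 counts. Reads of the NIK gene Map3k14 numbered 582 in control replicate 1, 588 in control replicate 2, 3305 in caNIK replicate 1 and 3989 in caNIK replicate 2, in the direction of the labels. The progenitor receptor gene Kit was abundant in all 4 libraries, between 506 and 613 TMM-normalised CPM, that is, counts brought to 1 effective library size. The progenitor genes Cd34 and Flt3 were far lower in caNIK, at 84.1 to 143 and 58.3 to 113 CPM, against 642 to 793 and 472 to 593 CPM in control. The labels do not state that a group's libraries stem from different animals; p-values hence reflect only the spread among these samples, and part of it may be technical. Both second replicates had higher levels of erythroid genes than the first replicates of their group, and results that rest on one of these libraries are given with and without it.

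Heme is an iron-holding ring made in a chain of reactions that begins and ends in mitochondria and passes through the cytosol. The first step, the joining of glycine and succinyl-CoA by an ALA synthase, limits the rate, and vertebrates have a gene for it in all tissues (Alas1) and a separate X-linked gene for erythroid cells (Alas2). Alas1 is known to be held down by heme itself, whereas Alas2 is known to be driven by GATA1 and, at the level of translation, by iron supply. In developing red cells the whole chain is known to run at a high rate to serve hemoglobin, and inherited faults in its enzymes cause the porphyrias and X-linked sideroblastic anemia.

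In caNIK HSPC, Alas2 was switched from near the lower end of detection to a level like that of the shared enzymes, the other ALA synthase Alas1 fell, and the later shared enzymes lay at higher levels by amounts that were small beside the change of Alas2. By edgeR's quasi-likelihood test at a Benjamini-Hochberg adjusted p under 0.05, Alas2, Alad, Ppox and Fech rose and Alas1 fell, which made 5 of 8 past the threshold, beside 22% of all tested genes. In the upward direction the 4 of 8 stood beside 13.8% of all tested genes, and in the downward direction the 1 of 8 beside 8.21%. Uros, Urod and Cpox did not pass. CPM of the 2 groups did not overlap for 6 enzymes that lay above and 1 that lay below in caNIK, against 33.3% and 31.6% of all tested genes. The median log2 fold change was 1.41 over the 8 enzymes and 0.00 over all tested genes. In RNA from a mixed population, more cells of a type cannot be told apart from more RNA per cell. Without caNIK replicate 2 the median over the 8 enzymes was 0.92. Calls from such a fit assume that the lone caNIK library varies like the control pair.

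**Figure D1:**
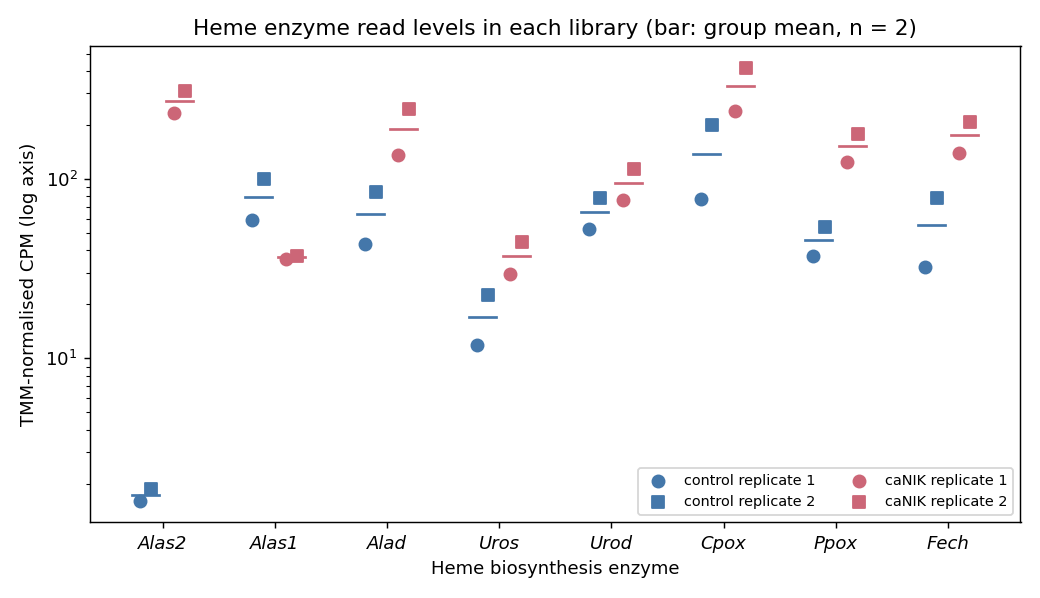
TMM-normalised CPM on a log axis for each of the 8 enzymes, with circles for replicate 1, squares for replicate 2, blue for control, red for caNIK and a bar at the mean of each group of 2 libraries. Alas2 sits at 1.61 and 1.87 CPM in control and 234 and 311 CPM in caNIK, Alas1 is the one enzyme with both caNIK points below both control points, and the Urod points of the groups overlap.

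Alas2 was counted 31 and 44 times in control replicates 1 and 2, and 4360 and 6445 times in caNIK replicates 1 and 2. As CPM these were 1.61, 1.87, 234 and 311. Both control libraries lay close together near the lower end of the range, and the lower caNIK library was 125 times the higher control library. Group means were 1.74 ± 0.189 CPM for control and 272 ± 54.1 CPM for caNIK (SD, n = 2). The log2 fold change was 7.28 ± 0.25 (SE), a 155-fold rise (edgeR adjusted p = 4.7e-05), and ranked 197 among 14191 tested genes from the highest. It passed in each of the alternative analyses, with log2 fold changes from 7.05 to 7.47. In the GENCODE vM21 annotation (GRCm38), Alas2 lies on the X chromosome and shares up to 372 exon bases with genes on the opposite strand, among them Apex2. Without a stated strand setting, reads from such a stretch cannot be assigned to 1 gene. Apex2 was counted 144 and 241 times in control and 183 and 318 times in caNIK, so its counts lay above those of Alas2 in control and far below them in caNIK. Xist, the X-linked RNA of the inactive X chromosome, differed between the control libraries, at 1971 and 903 CPM, and lay at 1190 and 1161 CPM in caNIK, while Alas2 was similar in both control libraries.

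The sequence before the Alas2 start is shown because Alas2 carried the largest change and because GATA1 is a known driver of it. Beside it stand the same stretches of Cpox, which also holds GATA letters, and of Ppox, which holds none. The log2 fold change was 1.24 ± 0.46 for Cpox, which did not pass, and 1.73 ± 0.26 for Ppox, which passed. Whether the letters bear on these changes was not tested. The stretches are all from RefSeq windows on GRCm38.p6, a later build than the mm9 that the submitters list. They run 5′ to 3′ on the gene's strand from 250 bases before the start, and the Alas2 stretch stops 43 bases before it, where an exon is annotated. The Alas2 stretch is chrX:150547167-150547374 (plus strand), that of Cpox is chr16:58669958-58670207 (plus strand) and that of Ppox is chr1:171281187-171281436 (minus strand). Capitals mark, on either strand, the letters GATA with A or T before them and A or G after them.
Alas2: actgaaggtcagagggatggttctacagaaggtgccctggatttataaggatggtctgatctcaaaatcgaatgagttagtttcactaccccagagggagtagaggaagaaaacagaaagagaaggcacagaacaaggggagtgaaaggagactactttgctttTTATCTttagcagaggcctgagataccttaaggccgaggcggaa
Cpox: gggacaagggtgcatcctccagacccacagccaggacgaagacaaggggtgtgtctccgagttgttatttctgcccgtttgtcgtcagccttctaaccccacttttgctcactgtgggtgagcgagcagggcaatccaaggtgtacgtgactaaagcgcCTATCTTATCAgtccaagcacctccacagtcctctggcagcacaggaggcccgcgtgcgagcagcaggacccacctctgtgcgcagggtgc
Ppox: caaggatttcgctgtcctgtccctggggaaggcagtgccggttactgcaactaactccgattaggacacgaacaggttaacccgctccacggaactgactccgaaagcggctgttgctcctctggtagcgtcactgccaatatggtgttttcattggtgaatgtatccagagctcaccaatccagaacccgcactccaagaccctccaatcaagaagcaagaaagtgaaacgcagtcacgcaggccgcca

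The Alas2 match begins 86 bases before the start. In Cpox, 2 matches that share a base begin 91 and 86 bases before it. Over the 10 windows of 250 bases that RefSeq gives for 7 of the 8 enzymes, 3 held such letters, namely those of Alas2, Cpox and the second start of Uros. Of all 32851 windows, 26.5% held them. CACCC, the core letters bound by KLF1, was found on either strand in 5 of the 10 windows and in 52% of all windows; the Alas2 window held 3 matches and the Cpox window 4. The Alas2 matches begin 40, 35 and 30 bases before the start, inside the annotated exon that the printed stretch leaves out. A match describes these letters only, and the data hold no binding measurement.

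Alas1, the ALA synthase of all tissues, was counted 1133 and 2355 times in control and 667 and 771 times in caNIK. Its exons share up to 465 bases with the antisense gene 4930500F10Rik on the opposite strand. Its levels were 58.8 and 100 CPM in control and 35.8 and 37.2 CPM in caNIK. The caNIK libraries were nearly equal and lay below both control libraries, which differed from each other by a factor of 1.71. The log2 fold change was -1.12 ± 0.26, a 2.18-fold fall (edgeR adjusted p = 0.025). The call was lost without control replicate 2 (log2 fold change -0.69, edgeR adjusted p = 0.12), and on leaving out either caNIK library (0.074 for replicate 1 and 0.075 for replicate 2), with adjusted p from 0.00079 to 0.12 over all alternatives.

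The makeup of ALA synthase transcripts differed between the groups. Alas2 gave 2.66% (95% Wilson interval 1.88 to 3.76) and 1.83% (1.37 to 2.45) of all ALA synthase reads in control replicates 1 and 2. In caNIK replicates 1 and 2 it gave 86.7% (85.8 to 87.6) and 89.3% (88.6 to 90.0). These intervals cover counting error only. Alas2 was the minor form in both control libraries and the main form in both caNIK libraries. Divided by the length of the principal transcript in GENCODE vM21 (2037 bases for Alas2 and 3399 for Alas1), the Alas2 share was 4.37% and 3.02% in control and 91.6% and 93.3% in caNIK. The summed level of both ALA synthases was 18.1 and 30.4 CPM per kilobase in control and 125 and 163 in caNIK. The log2 ratio of Alas2 to Alas1 reads was -5.17 and -5.72 in control and 2.71 and 3.06 in caNIK, a difference of 8.33, or 322-fold. Its exact two-sided permutation p = 0.333 is the smallest that 2 libraries against 2 allow, so the test cannot pass at 0.05.

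Alad, which joins pairs of ALA molecules in the cytosol into the first pyrrole ring, rose. It was counted 840 and 1993 times in control and 2528 and 5094 times in caNIK, or 43.6 and 84.9 against 136 and 246 CPM. The groups did not overlap, and in each the second replicate lay above the first. The log2 fold change was 1.57 ± 0.39 (edgeR adjusted p = 0.03). It was 1.07 without caNIK replicate 2, where the call was lost (edgeR adjusted p = 0.11, with 0.00015 to 0.11 over all alternatives).

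Uros, the synthase that closes the ring of uroporphyrinogen, was counted 227 and 527 times in control and 550 and 921 times in caNIK. At 11.8 and 22.5 against 29.5 and 44.4 CPM it was the least read of the later enzymes, and its groups did not overlap. Its log2 fold change of 1.11 ± 0.36 missed the threshold (edgeR adjusted p = 0.07). It passed with DESeq2 (adjusted p = 0.019), with every gene with a read kept (edgeR adjusted p = 0.01) and without control replicate 2 (edgeR adjusted p = 0.0065), with 0.0044 to 0.25 over all alternatives.

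Urod, which trims the side chains of the ring as the last cytosolic enzyme, stood out as the enzyme with overlapping groups. It was counted 1016 and 1838 times in control and 1429 and 2354 times in caNIK, or 52.7 and 78.3 against 76.7 and 113 CPM. The lower caNIK library was just under the higher control library. Its log2 fold change of 0.54 ± 0.26 did not pass (edgeR adjusted p = 0.2).

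Cpox, in the space between the mitochondrial membranes, was counted 1488 and 4683 times in control and 4426 and 8672 times in caNIK. Its exons share up to 204 bases with Gpr15 on the opposite strand, which was counted 6 and 2 times in control and 25 and 8 times in caNIK. The control libraries differed by a factor of 2.59, the widest spread of any of the 8 enzymes, at 77.2 and 200 CPM, against 238 and 418 CPM in caNIK. The groups did not overlap, yet the log2 fold change of 1.24 ± 0.46 did not pass (edgeR adjusted p = 0.1). Without control replicate 2 it was 2.09 and passed (edgeR adjusted p = 0.00066), and it also passed with every gene with a read kept (0.0068), with 0.00066 to 0.34 over all alternatives.

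Ppox, which oxidises the ring to protoporphyrin, had the clearest rise of the shared enzymes. It was counted 719 and 1274 times in control and 2312 and 3722 times in caNIK. Levels of 37.3 and 54.3 CPM in control stood against 124 and 179 CPM in caNIK, and the lower caNIK library was 2.29 times the higher control library. The log2 fold change was 1.73 ± 0.26, or 3.31-fold (edgeR adjusted p = 0.0052), and it passed in each alternative with values from 1.43 to 2.03. Its exons share up to 791 bases with B4galt3 on the opposite strand, whose levels were 30.5 and 33.9 CPM in control and 40.7 and 39.9 CPM in caNIK and did not pass.

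Fech, the ferrochelatase that puts iron into the finished ring, rose as well. It was counted 620 and 1834 times in control and 2608 and 4340 times in caNIK, or 32.2 and 78.1 against 140 and 209 CPM. The lower caNIK library was 1.79 times the higher control library, although the control libraries differed by a factor of 2.43. The log2 fold change was 1.66 ± 0.41 (edgeR adjusted p = 0.031). Without caNIK replicate 2 the call was lost (edgeR adjusted p = 0.11, with 8.5e-05 to 0.11 over all alternatives).

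**Figure D2:**
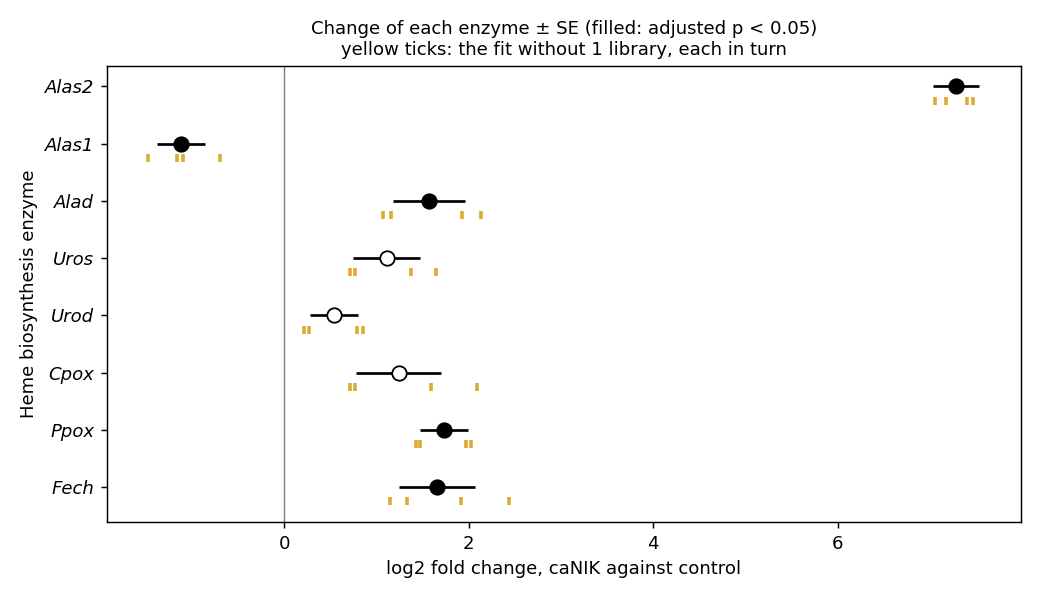
Log2 fold change of each enzyme, caNIK against control, with its SE, filled where the edgeR adjusted p is under 0.05, and yellow ticks for the same value with each library left out in turn. Alas2 lies at 7.28, the later enzymes lie between 0.54 and 1.73, and Alas1 lies at -1.12.

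Within a library, levels of different enzymes can be compared only per length. CPM per kilobase of the principal GENCODE transcript was used for this, and a gene model other than the authors' would move these values, above all for Fech with its long transcript of 6571 bases. In both control libraries Alas2 was the lowest of the 8 enzymes, at 0.789 and 0.92, and Alad, Urod and Cpox were the highest, with Urod first in replicate 1 (35.4) and Alad first in replicate 2 (68.1). The order was different in caNIK. Alas2 was first in replicate 1 (115, ahead of Alad at 109) and second in replicate 2 (153, after Alad at 197), and Alas1 was last in both, at 10.5 and 10.9. Alas2 thus went from place 8 in both control libraries to the first 2 places in caNIK, and Alas1 from place 5 in both to place 8 in both. Urod went from places 1 and 3 to place 5 in both, and Uros and Fech traded places 6 and 7. Alad, Urod and Cpox held the first 3 places in a different order in each control library, and in caNIK only Alas2 and Alad changed places between libraries.

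Alas2 was also set against each shared enzyme within the same library, a ratio that no scaling factor touches. In control, Alas2 reads were between 0.0094 (Cpox, replicate 2) and 0.137 (Uros, replicate 1) times those of a shared enzyme. In caNIK they were between 0.743 (Cpox, replicate 2) and 8.36 (Alas1, replicate 2) times. Per length of the principal transcript, the range in control was 0.0135 (Alad, replicate 2) to 0.161 (Fech, replicate 1). In caNIK the per-length range was 0.775 (Alad, replicate 2) to 13.9 (Alas1, replicate 2). For each of the 7 shared enzymes both caNIK ratios lay above both control ratios, as they did against 98.2% of all other tested genes. On the log2 scale the difference between the groups ran from 5.49 for Fech to 8.33 for Alas1, or 44.9-fold to 322-fold. Each of the 7 exact two-sided permutation tests gave p = 0.333, the smallest possible, and the Benjamini-Hochberg adjusted values are the same. Alas1 parted from the other shared enzymes too. Reads of Fech relative to Alas1 were 0.547 and 0.779 in control and 3.91 and 5.63 in caNIK, and those of Urod, the enzyme that moved least against Alas1, were 0.897 and 0.78 against 2.14 and 3.05. All 6 of the later enzymes gained on Alas1, by 3.06-fold (Urod) to 7.18-fold (Fech), with exact permutation p = 0.333 for each and no overlap between groups; 76.2% of all other tested genes did so too.

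**Figure D3:**
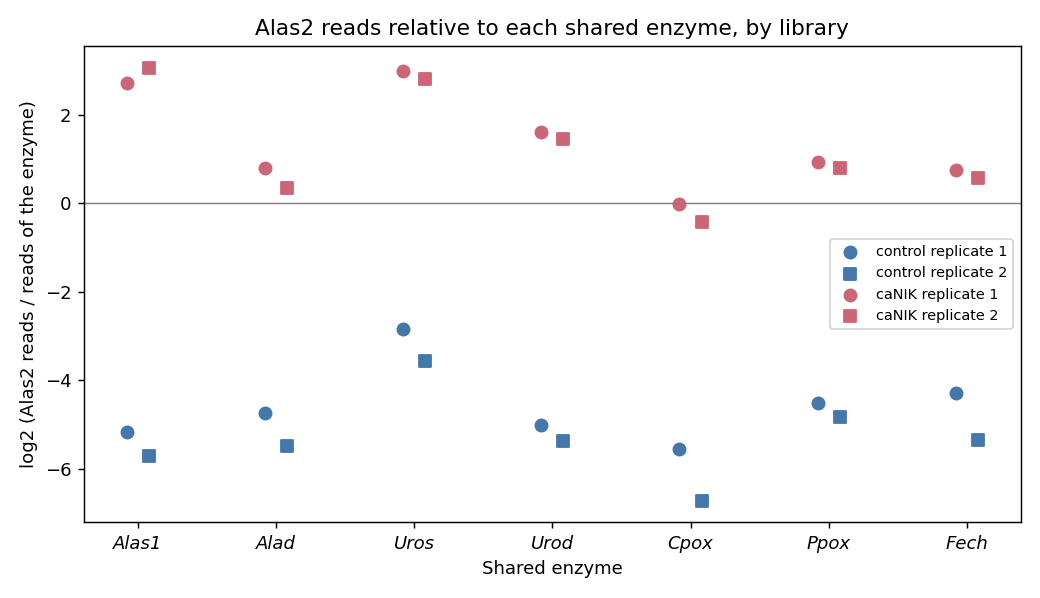
Log2 ratio of Alas2 reads to the reads of each shared enzyme in each of the 4 libraries, blue for control and red for caNIK. The highest control point is at -2.85 (Uros) and the lowest caNIK point at -0.43 (Cpox), with the widest separation for Alas1.

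Genes that supply the chain and carry its products were examined as lists, which were chosen with earlier results of these data known. Of 16 genes of mitochondrial heme and iron transport and iron-sulfur assembly, 5 rose (beside 13.8% of all tested genes), 0 fell (beside 8.21%) and 11 did not pass, with a median log2 fold change of 0.35. Slc25a37 (mitoferrin-1), the iron importer of erythroid mitochondria, rose from 99 and 105 CPM to 368 and 433 CPM (log2 fold change 1.98 ± 0.16, edgeR adjusted p = 0.00052). Slc6a9, the cell's glycine importer, rose from 2.59 and 2.85 CPM to 23.3 and 37 CPM (3.46 ± 0.33, edgeR adjusted p = 0.00097). Slc25a38, the mitochondrial carrier linked with glycine import, rose from 19.2 and 29.5 CPM to 74.3 and 108 CPM (1.91 ± 0.28, edgeR adjusted p = 0.0048). The other risers were Abcb10, a partner of mitoferrin-1 (1.40 ± 0.34), and Tmem14c, which is needed for porphyrin import (1.29 ± 0.29). Of the genes for iron-sulfur assembly, none passed. Iscu gave -0.12 ± 0.15 and Nfs1 -0.16 ± 0.16, whereas Glrx5, a glutaredoxin of the same process, gave 0.77 ± 0.31 with groups that did not overlap (79.8 and 135 against 142 and 224 CPM). The list's median was 0.27 without caNIK replicate 2 and 0.42 without caNIK replicate 1.

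Among 12 genes for ALA synthase turnover and heme sensing, 0 rose and 1 fell (median 0.15). That lies near the 8.21% of all tested genes that fell, and 13.8% rose. The gene that fell was Nr1d1, a heme-binding nuclear receptor, from 10.5 and 11 CPM to 3.28 and 3.09 CPM (-1.76 ± 0.35, edgeR adjusted p = 0.014). Clpx, the mitochondrial unfoldase that acts on ALA synthases, gave 0.56 ± 0.18, the heme-regulated kinase gene Eif2ak1 0.51 ± 0.19 and the heme-binding repressor gene Bach1 0.18 ± 0.16, none past the threshold. Without caNIK replicate 1 the median of the list was 0.28, and without caNIK replicate 2 it was 0.01.

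Of 7 tested genes for heme export, import and breakdown, 3 rose and 1 fell (median 0.08), beside 13.8% and 8.21% of all tested genes. The porphyrin exporter gene Abcg2 rose by 1.93 ± 0.27, from 33.5 and 31.8 CPM to 91.2 and 158 CPM (edgeR adjusted p = 0.0041). Blvrb, a reductase abundant in red cells, rose by 2.25 ± 0.56 (edgeR adjusted p = 0.031). The inducible heme oxygenase gene Hmox1 rose from 5.65 and 8.99 CPM to 18.9 and 16.7 CPM, while the constitutive Hmox2 fell from 62.9 and 55.2 CPM to 32.1 and 31.4 CPM (edgeR adjusted p = 0.034 and 0.011). The median of these genes was -0.11 without caNIK replicate 2 and 0.28 without caNIK replicate 1. The heme-binding plasma protein gene Hpx was not tested. It had no control read and 9 caNIK reads. Against a floor of 3 counts over the control group this was 3.26-fold more, without the counting error of the 9 reads. Of 12 iron uptake and storage genes, 2 rose and 0 fell (median 0.28), the first near the 13.8% of all tested genes that rose. These were the ferritin genes Fth1 (0.89 ± 0.24) and Ftl1 (0.86 ± 0.19). Tfrc, the transferrin receptor, gave 229 and 419 CPM in control and 548 and 848 CPM in caNIK, with 1.11 ± 0.32 and an edgeR adjusted p = 0.054. This list's median was 0.04 without caNIK replicate 2, 0.09 without control replicate 1 and 0.49 without control replicate 2. Without control replicate 1 neither ferritin gene passed as higher.

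**Figure D4:**
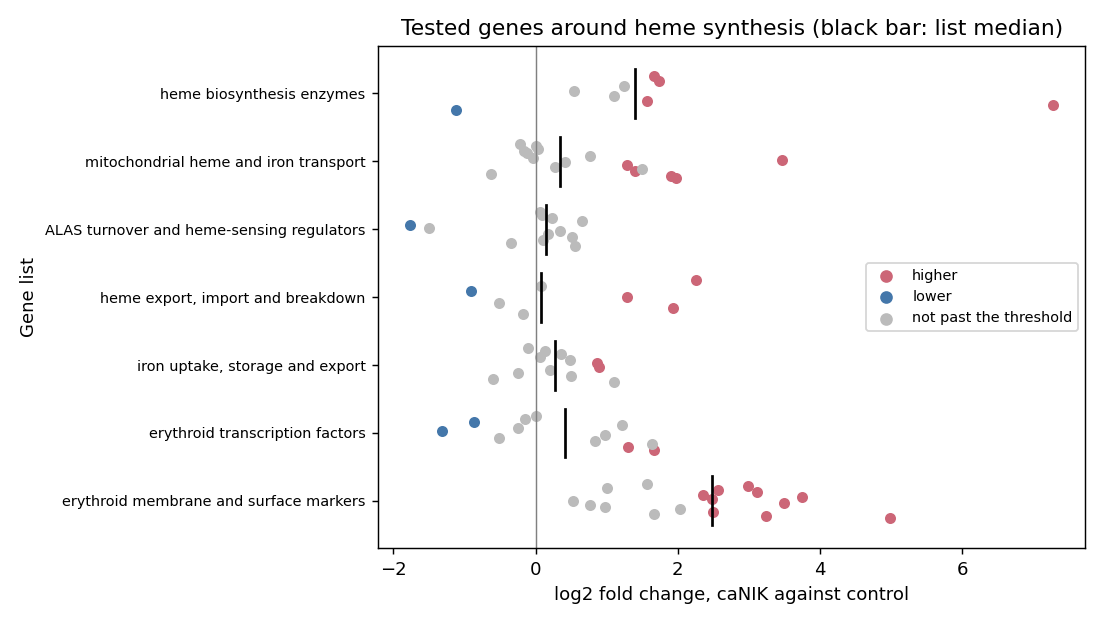
Log2 fold changes, caNIK against control, of the tested genes in 7 lists, coloured by whether they passed the threshold, with a black bar at each list's median. Alas2 at 7.28 lies to the right of every other gene drawn, and the list medians run from 0.08 for heme export, import and breakdown to 2.48 for the erythroid membrane and surface markers.

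Of 12 erythroid transcription factors, 2 rose, 2 fell and 8 did not pass (median 0.42). Of all tested genes 13.8% rose and 8.21% fell. Gata1, the factor known to drive Alas2, was at 22.5 and 62.8 CPM in control and 101 and 171 CPM in caNIK, a rise of 1.67 ± 0.48 that just passed (edgeR adjusted p = 0.0497). Gata2 rose by 1.30 ± 0.22, and the partner genes Lmo2 and Lyl1 fell by 1.32 and 0.86 on the log2 scale. Klf1 gave 21.3 and 65.7 CPM against 87.1 and 184 CPM and did not pass (1.64 ± 0.55, edgeR adjusted p = 0.081). Leaving out control replicate 2 gave a median of 0.52 for this list, leaving out caNIK replicate 2 gave 0.22, and leaving out caNIK replicate 1 gave 0.57. Of the globin genes, which encode the protein part of hemoglobin, only Hbb-y, Hba-x and Hbb-bh1 had reads. All 3 lay higher in caNIK, but they passed the filter on low counts only through that group. Their direction was thus set by the filter and is given as a description. Rows of the adult globins Hba-a1, Hba-a2, Hbb-b1, Hbb-b2, Hbb-bt and Hbb-bs held 0 in each of the 4 tables. No source used here says what was done with reads that fit several loci, so these zeros do not show that the transcripts were absent. The embryonic globin genes Hbb-y and Hba-x had no read in control and were at least 2028-fold and at least 60.1-fold higher in caNIK, against a floor of 3 counts over the group. Hbb-bh1 had 2 control reads, a ratio of 132 with an exact counting interval of 36.1 to 1096.

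Markers of red cell precursors moved with the heme enzymes. Of 17 erythroid membrane and surface markers, 10 rose and 0 fell (median log2 fold change 2.48), beside 13.8% and 8.21% of all tested genes. Their summed level was 730 and 1568 CPM in control and 4364 and 7082 CPM in caNIK, with none at 0. The anion exchanger gene Slc4a1 rose from 4.15 and 11.4 CPM to 206 and 291 CPM (4.99 ± 0.48), and the carbonic anhydrase genes Car2 and Car1 rose by 2.56 ± 0.24 and 3.12 ± 0.49 (edgeR adjusted p from 0.0009 to 0.0064 for the 3). With 1 library left out, the median of the markers ran from 1.74 (without control replicate 1) to 3.76 (without control replicate 2). It was 1.93 without caNIK replicate 2, and fewer of the markers passed in that fit. Within a library the ratio of Alas2 to a marker was higher in caNIK for 17 of 17 markers with no overlap between groups. The same held against 98.2% of all other tested genes, so the count says nothing particular to these markers. The difference was 2.11 on the log2 scale against Slc4a1 and up to 6.72 against Epb4.1, in a design where no exact permutation p can go below 0.333. The part of erythroid cells in the levels of the heme enzymes was not tested.

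Markers of other cells that such a sort can hold moved too. Of 11 mast cell markers, 10 rose (beside 13.8% of all tested genes) and 0 fell (beside 8.21%), with a median of 5.76. They had summed levels of 83.8 and 119 CPM in control and 2819 and 1389 CPM in caNIK and none at 0 in both control libraries. The tryptase gene Tpsb2 rose by 6.45 ± 0.46, its neighbour Tpsab1 by 8.68 ± 0.78 and the chymase gene Cma1 by 5.76 ± 0.51, within families whose near-identical copies can share reads. Tpsab1, Fcer1a and Mrgprb1 had at most 6 reads in a control library and passed the filter on low counts only through caNIK. Their rise was thus set by the filter, though they are part of the count and the median. Of 12 macrophage markers, 3 rose and 0 fell, beside the same 13.8% and 8.21%. The median log2 fold change of these markers was 0.92, and 1.60 without control replicate 2. They summed to 55.4 and 117 CPM in control and 303 and 503 CPM in caNIK. In caNIK this sum was made up largely of Vcam1, at 184 and 338 CPM, against 7.11 and 20.7 CPM in control. In control Csf1r was the highest of them, at 22 and 40 CPM. The others that rose were Spic and Marco, of which Marco passed the filter on low counts only through caNIK. Of 10 tested megakaryocyte markers, 4 rose and 2 fell, again beside 13.8% and 8.21% (all 11 summed to 255 and 381 CPM against 620 and 487 CPM, with Gp6 at 0 in control). The integrin genes Itgb3 and Itga2b rose by 3.59 ± 0.36 and 1.40 ± 0.33. The median log2 fold change of this list was 0.99. Left without control replicate 1 it was 0.45, and left without control replicate 2 it was 1.66. Without caNIK replicate 1 it was 0.83, and without caNIK replicate 2 it was 1.02. Fewer megakaryocyte markers passed as higher in each of these last fits. Whether these cells bear on the heme enzymes was not tested.

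Within caNIK, the enzymes and the mast cell markers differed between replicates in opposite directions. In control, replicate 2 lay above replicate 1 for 8 of 8 enzymes, by 1.17 (Alas2) to 2.59 times (Cpox), and in caNIK for 8 of 8, by 1.04 (Alas1) to 1.81 times (Alad). Over all tested genes with reads in every library, replicate 2 was the higher for 49.7% in control and 47.4% in caNIK. Erythroid markers shared this direction in 17 of 17 in both groups, with a wider range in control of 1.31 to 8 times. Of the 10 mast cell markers with reads in every library, 6 were higher in control replicate 2 (median ratio 1.29), the direction of the enzymes, but 0 of 10 in caNIK replicate 2, with ratios from 0.318 to 0.649. Alas2 had the smallest control ratio of the enzymes, 1.17, and the erythroid markers began at 1.31. The Alas2 ratio rests on 31 and 44 reads, too few to rank it against the lower of these markers.

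**Figure D5:**
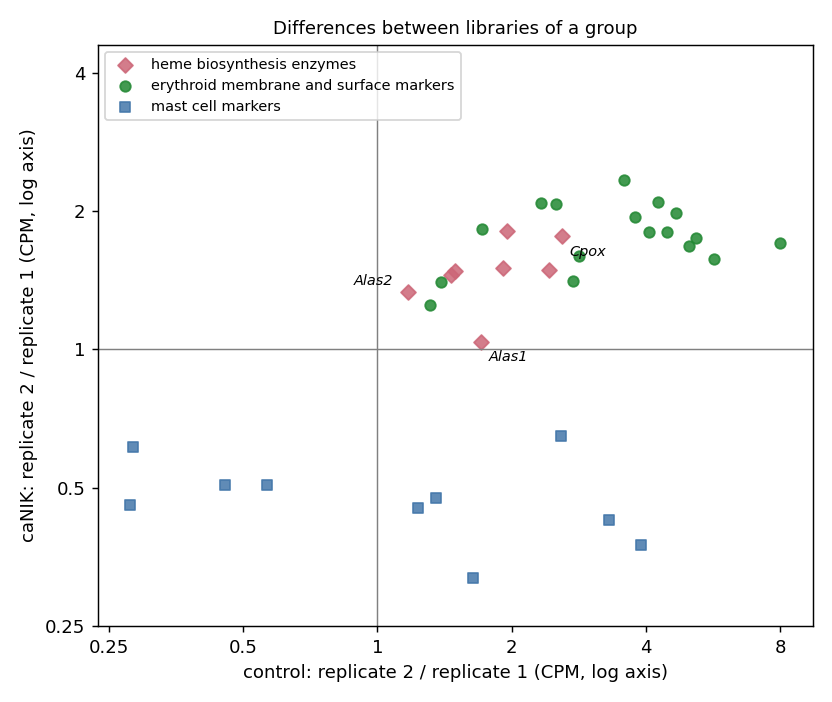
Ratio of replicate 2 to replicate 1 in control (horizontal, log axis) and in caNIK (vertical, log axis) for each heme enzyme, erythroid marker and mast cell marker with reads in every library. Heme enzymes and erythroid markers lie to the upper right of 1 in both groups, and mast cell markers lie below 1 in caNIK, between 0.318 and 0.649.

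The genes whose pattern over the 4 libraries was closest to that of Alas2 were ranked by the root mean square difference of centred log2 CPM among 11278 tested genes with at least 5 CPM in the higher group. The first 5 were Ttc39a (0.15), the surface protein gene Susd2 (0.18), the MHC class II gene H2-Eb1 (0.27), the pregnancy glycoprotein gene Psg17 (0.28) and the antithrombin gene Serpinc1 (0.30). Ttc39a stood at 1.04 and 1.02 CPM in control and 120 and 204 CPM in caNIK, and Susd2 at 1.56 and 2.13 against 200 and 358 CPM. Psg17 had no control read, and its caNIK level was at least 76.7-fold higher. Its control level in the ranking was set by the prior of 0.5 counts, so its place depends on that prior. Serpinc1 had 4 and 5 control reads. None of the 5 belongs to the lists around heme synthesis, and with 4 libraries the ranking reflects mainly the size of the difference between the groups.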

How the data were processed

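For each of the 4 libraries the authors deposited a table of raw read counts per gene symbol, per the file headers. Listed without role or order in the submitters' processing notes are TopHat2 2.1.0, FastQC, DESeq2 1.10.1, featureCounts 1.5.0 and the build mm9. No source used here gives the annotation, the strand setting or the rule for reads that fit several loci.

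The count model was edgeR 4.0.16 in R 4.3.3 (filterByExpr, TMM factors, glmQLFit and glmQLFTest with group as the only term), adjusted over all 14191 tested genes; the SE of a log2 fold change was taken from the F statistic. The test was tried on simulated counts with known changes in 200 genes, fewer than the 3129 genes called in the data. It recovered 5.97% of 1.5-fold, 29.6% of 2-fold and 77% of 4-fold changes, and 0.798% of its calls were false. A gene that did not pass is hence not shown to be unchanged. Ratios within a library and the ranking of genes by likeness to Alas2 used a prior of 0.5 counts. Alternatives were DESeq2 1.42.0, limma-voom (limma 3.58.1), other scalings and filters, and the replicate number as a block. Further alternatives left out each library in turn, with the tested genes held fixed. Medians of the lists without a library were added after seeing the data. All 8 enzymes are named; from each other list the up to 3 members with the smallest p past the threshold and members without reads in a group were named by rule, and other genes were named after their values were seen. Some members of the lists are counted but not reported by name here. Members and lists were chosen with earlier results of these data known, and the members do not include every enzyme of the chain. Promoter windows and gene models are of GRCm38, not mm9.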

Additional observations from a re-analysis of the deposited data

How the results depend on the processing

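Alas2 and Ppox kept their direction and their call in all 12 alternatives, and no enzyme changed direction in any of them. The count of enzymes past the threshold was 5 and ran from 2 to 6 when 1 library was left out, with the lowest value without caNIK replicate 2. With the replicate number as a block it was 8. The labels do not say that a number marks a shared animal, litter or day. The deviations of same-numbered libraries correlated at 0.18 over 2 pairs, too few to settle a pairing. Calls with the block are therefore given by name here only, but the ranges over all alternatives above include it. The lowest adjusted p of Alad (0.00015) and of Uros (0.0044), by edgeR's test, came from the block. It raised the calls over all genes from 3129 to 4260. The call was lost in 3 alternatives for Alas1 and in 1 each for Alad and Fech, all of them fits without 1 library, and was gained in 4 for Uros, 3 for Cpox and 1 for Urod. The Alas2 to Alas1 log2 ratio differed between groups by 8.06 to 8.61 without 1 library, by 8.33 with the block, and by 8.27 and 8.35 with priors of 2 and 0.1 counts. Scaling moved the median of all tested genes by at most 0.06. Depth limits Alas2 in control, where it rests on 31 and 44 reads.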
